A study of Mus musculus with 72 samples.

Results

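The genes described here are 39 genes of G2 and mitosis, taken by name from a list of mouse symbols and matched to the Ensembl identifiers of the count files. All 39 were found among the 46078 genes of the files, and all 39 passed the filter on low counts that left 18515 genes for testing. They were sorted by role into cyclins with Cdk1 and Cks (5 genes), mitotic entry and spindle assembly kinases with their activator (3), the chromosomal passenger complex (4), the spindle checkpoint (3), the anaphase-promoting complex with securin and other targets (4), centromere and kinetochore (6), kinesins and spindle microtubule proteins (7), midzone and cytokinesis (5), and chromosome structure (2).

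RNA-seq was done on dissociated cells of the interfollicular epidermis, the skin epithelium between the hair follicles, taken from the back of female C57BL/6 mice 8 weeks old that lived in 12 h of light and 12 h of darkness. The mice were K14-Cre (called WT), Bmal1-stopFL (KO), in which a stop cassette in the gene is meant to silence the clock transcription factor Bmal1 in every tissue, or Bmal1-stopFL/K14-Cre (RE), in which Cre driven by the keratin 14 promoter restores Bmal1 where that promoter is or was active, as in epidermis and other stratified epithelia, so that other tissues stay without it. Each genotype was sampled at 6 time points, numbered in order with no clock hours, with 4 mice at each, which gives 72 libraries in 18 groups. WT mice carry the Cre transgene and no stop cassette, and KO mice the cassette and no Cre.

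Entry into mitosis is driven by the kinase Cdk1 with cyclins A and B, and exit begins when Cdc20 activates the anaphase-promoting complex, which marks securin and cyclin B for destruction. Transcripts of this programme build up in late S phase, G2 and mitosis and are low in resting cells. MuvB complexes with B-Myb or FoxM1, which act through cell cycle genes homology regions (CHR), and the factor NF-Y, which binds CCAAT boxes, are known to control many of these genes. In epidermis, dividing cells lie mainly in the basal layer, whose cells express keratins 5 and 14. In bulk RNA, fewer dividing cells and less RNA per dividing cell cannot be told apart.

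The libraries held between 29551992 and 49461975 reads in genes, and the 39 members together between 7403 and 94395 reads, or 0.0183% to 0.231% of a library. Arntl, the gene of Bmal1, was at 75.2 ± 37.7 CPM in WT, 31.3 ± 2.98 CPM in KO and 72.7 ± 21.6 CPM in RE (CPM, counts scaled to the library size after TMM normalization, as mean ± SD, n = 24). The basal markers Krt5, Krt14, Krt15, Col17a1, Itga6, Itgb4 and Trp63 were all detected, and their sum lay between 19156 and 30282 CPM in 70 libraries. In the other 2, the libraries labelled WT time point 5 replicate 4 and RE time point 5 replicate 3, it was at 3686 to 5716 CPM, and Krt14 was at 274 and 343 CPM against at least 2514 CPM elsewhere. Suprabasal markers summed to between 48674 and 55818 CPM in these 2 libraries and to between 14033 and 27641 CPM in the others. Outer sheath markers (2357 to 2815 against 535 to 1914 CPM) and fibroblast markers (32.8 to 145 against 2.63 to 29.6 CPM) were also above the range of the other 70, and the part of such cells in the members' levels there was not tested. Libraries were also placed between the WT mean (0) and the KO mean (1) by 50 genes that separate the 2 genotypes, and the library labelled KO time point 3 replicate 1 lay at 0.236, with the next lowest KO library at 0.687. On a like scale from WT to RE, on which 6 other libraries also crossed the middle, the libraries labelled WT time point 3 replicate 2 and RE time point 3 replicate 2 lay at 0.795 and 0.0193. These are the 5 libraries in doubt. The libraries also form 2 sets by the ratio of 2 mitochondrial transcripts, mt-Co1 to mt-Nd1. The first set holds WT time points 1 to 4 and KO and RE time points 1 to 3 (40 libraries), and the second the rest (32), so in each genotype the set divides the day.

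Sequences of the promoters are shown because the members moved together, and they are read against the order of peaks given below. RefSeq promoter windows (GRCm38.p6, 250 bases before to 50 after a transcript start) were found for 33 of the 39 members, in 35 windows. A CHR word, TTTGAA or TTCGAA on either strand (TTTGAA reads TTCAAA on the other strand), was in 28 of the 35 windows, against 19.2% of all 32851 windows of the table. CCAAT on either strand (ATTGG on the other) was also in 28, against 37.4%, and 20 windows held it more than once, against 3842 of all 32851. Ect2 and Prc1 have 2 overlapping windows each. By gene, CHR words were in 26 of the 33 members, CCAAT in 26, and CCAAT more than once in 19. Both kinds were in 25 windows, against 7.52%. The E-box CACGTG, a word that Bmal1 with Clock can bind, was in 2 windows, those of Anln and Ttk, against 7.15%. The windows below run 5′ to 3′ on the strand of the gene, with CHR, CCAAT and CACGTG words in capitals. They belong to members with early WT peaks (Bub1, Top2a), to members with late ones (Ccnb2, Plk1, Cdc20, Cks2), and to Ttk, whose pattern differed from the rest.
Bub1 (chr2:127831810-127832109, minus strand): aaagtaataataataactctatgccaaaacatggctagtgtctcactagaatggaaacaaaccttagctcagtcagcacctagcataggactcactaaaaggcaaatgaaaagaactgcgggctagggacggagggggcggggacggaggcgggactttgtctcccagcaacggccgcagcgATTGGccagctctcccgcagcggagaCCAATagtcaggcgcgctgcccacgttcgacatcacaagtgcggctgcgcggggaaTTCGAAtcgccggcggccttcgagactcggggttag
Top2a (chr11:99024140-99024439, minus strand): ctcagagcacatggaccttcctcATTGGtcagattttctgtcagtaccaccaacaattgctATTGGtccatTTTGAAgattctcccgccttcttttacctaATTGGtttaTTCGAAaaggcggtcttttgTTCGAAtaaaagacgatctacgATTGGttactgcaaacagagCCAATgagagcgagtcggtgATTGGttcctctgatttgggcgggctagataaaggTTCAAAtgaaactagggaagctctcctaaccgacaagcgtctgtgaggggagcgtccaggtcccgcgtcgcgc
Ccnb2 (chr9:70421505-70421804, minus strand): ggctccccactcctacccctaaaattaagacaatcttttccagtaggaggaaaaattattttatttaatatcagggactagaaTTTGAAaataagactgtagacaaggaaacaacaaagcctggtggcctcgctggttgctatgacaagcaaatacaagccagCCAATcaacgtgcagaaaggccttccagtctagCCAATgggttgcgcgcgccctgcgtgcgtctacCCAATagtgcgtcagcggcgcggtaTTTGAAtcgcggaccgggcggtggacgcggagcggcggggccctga
Plk1 (chr7:122159185-122159484, plus strand): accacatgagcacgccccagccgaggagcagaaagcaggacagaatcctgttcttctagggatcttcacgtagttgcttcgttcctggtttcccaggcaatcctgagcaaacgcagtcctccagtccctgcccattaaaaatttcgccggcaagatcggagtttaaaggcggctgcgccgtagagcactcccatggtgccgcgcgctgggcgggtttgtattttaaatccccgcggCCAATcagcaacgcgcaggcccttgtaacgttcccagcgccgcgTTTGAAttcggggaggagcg
Cdc20 (chr4:118437294-118437593, minus strand): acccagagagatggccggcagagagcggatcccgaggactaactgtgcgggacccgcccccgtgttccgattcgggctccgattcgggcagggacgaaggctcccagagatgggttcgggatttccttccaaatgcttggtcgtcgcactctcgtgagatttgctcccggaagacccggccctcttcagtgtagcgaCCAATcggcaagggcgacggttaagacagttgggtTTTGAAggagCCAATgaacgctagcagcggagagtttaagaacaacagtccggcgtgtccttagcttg
Cks2 (chr13:51644982-51645281, plus strand): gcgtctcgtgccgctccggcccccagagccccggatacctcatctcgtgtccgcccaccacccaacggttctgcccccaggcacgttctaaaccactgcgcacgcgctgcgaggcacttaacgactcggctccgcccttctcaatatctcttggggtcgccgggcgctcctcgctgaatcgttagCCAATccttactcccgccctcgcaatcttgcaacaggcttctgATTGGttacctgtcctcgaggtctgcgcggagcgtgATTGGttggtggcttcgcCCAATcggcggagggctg
Ttk (chr9:83834439-83834738, plus strand): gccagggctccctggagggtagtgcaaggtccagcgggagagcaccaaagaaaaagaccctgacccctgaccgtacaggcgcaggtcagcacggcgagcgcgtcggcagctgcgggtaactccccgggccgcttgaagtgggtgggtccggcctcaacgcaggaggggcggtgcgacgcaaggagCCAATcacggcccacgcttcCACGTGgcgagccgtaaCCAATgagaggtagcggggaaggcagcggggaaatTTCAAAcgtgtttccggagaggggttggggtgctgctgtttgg
In these windows the CHR word of Cdc20 begins 18 bases before the start, and its CCAAT boxes 53 and 8 bases before it. That of Bub1 begins 14 bases after the annotated start and that of Plk1 30 bases after it. Cks2 has 4 CCAAT boxes and no CHR word in its window, and Top2a has 4 CHR words and 6 CCAAT boxes. The E-box of Ttk begins 45 bases before the start, between its 2 CCAAT boxes. Early and late members both held CHR words, and some of both lacked them. No CHR word was in the windows of Cenpe, Cks2 and Ccnb1, which peaked late, or of Birc5 and Nuf2, which peaked early. A word in a window is not evidence of binding.

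In WT the members rose and fell together once a day, highest around time points 6 and 1 and lowest at time points 3 and 4. A daily rhythm was called by edgeR (quasi-likelihood test of a cosine with a period of 6 time points, adjusted p under 0.05) in 35 of 39 members, where 33.3% of all genes tested were called. Their median fold range from trough to peak was 2.49, against 1.28 over all genes tested. All 35 peaks lay within 1 time point of their mean, 6.82 on a scale where 1 and 7 are the same time. The members took 0.149% of reads at time point 1, 0.119% at 2, 0.0786% at 3, 0.0755% at 4, 0.0900% at 5 and 0.150% at 6 (means of 4 libraries). The mean at time point 5 was lowered by the library of low Krt14, at 0.0183%, with the others at 0.125%, 0.116% and 0.101%. Without the 5 libraries in doubt 38 members were called (34.4% of all genes, all but Pttg1), and 29 were with a term for the set added (25.0% of all genes). With the term and without the 5, 37 were called (31.1%), and from time points within the sets alone, 20, where 24.7% of all genes were. Of the WT time points set side by side below, those from 1 to 4 lie in the first set and 5 and 6 in the second.

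**Figure D1:**
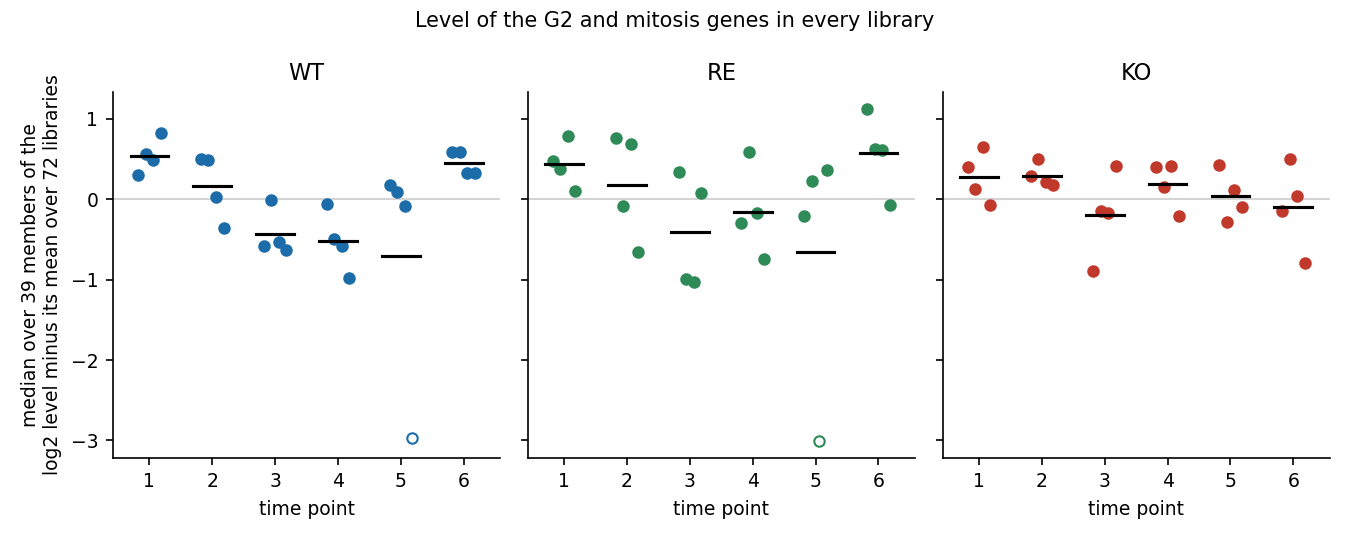
Level of the 39 members in every library, as the median over members of the log2 level minus the member's mean over 72 libraries, by time point (x axis) in WT, RE and KO; points are libraries, bars are group means, and open points are the 2 libraries of low Krt14. In WT all 8 libraries of time points 1 and 6 lie at or above 0.306 and all 8 of time points 3 and 4 at or below -0.0069, while in KO every time point holds libraries on both sides of 0 except time point 2.

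The level of the members also differed between mice of one time point, and in some groups it did so for nearly all members at once. The mouse with the lowest median member level at WT time point 4 was the lowest of its group in 35 of 39 members. The library highest at KO time point 6 was the highest of its group in 39 of 39. Both libraries were picked by their median over the same members, which favours a high count. In other groups the lead was split. At WT time point 3, replicates 1 and 4 were each the lowest in 17 members. At WT time point 2, replicates 1 and 2 were the highest in 20 and 17. In the 2 libraries of low Krt14 the median member level was at -2.97 and -3.01 (log2 deviation from the mean over libraries), and 36 of 39 members were the lowest of their group. The 3 that were not were Kif4, Pttg1 and Ttk.

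Cyclins carry the signal for entry. Ccnb2 (ENSMUSG00000032218, chromosome 9, 70407692 to 70421547, minus strand, GRCm38), one of the B cyclins, was at 14.4, 18.2, 15.9 and 20.2 CPM in the 4 WT libraries of time point 1. At WT time point 4 it was at 6.99, 4.51, 5.17 and 4.39 CPM. The 2 time points did not overlap. The pairs of time points set side by side here and below differ between members and mostly lie near each one's high and low. No overlap between them thus describes the values and is not a test. Its log2 range was 1.82 ± 0.35 (SE), with a peak at 1.03. Ccnb1, the other mitotic B cyclin, went from a mean of 36.4 ± 6.86 CPM in WT mice of time point 1 to 12.6 ± 3.19 CPM in those of time point 4 (SD, n = 4). Ccna2, the cyclin of S phase and G2, and Cdk1, the kinase they all activate, ranged less and peaked earlier, at 6.64 and 6.68. Cks2, a small subunit of the Cdk1 complexes, had the smallest range of the group. It was at 2.43, 2.96, 2.42 and 2.39 CPM at WT time point 1, above all 4 libraries of every later time point of the day. All 5 genes of the group were called. Ccnb1 and Ccnb2 have named pseudogenes, so their counts are uncertain.

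Of the kinases of mitotic entry and spindle assembly, all 3 members were called in WT. Plk1, polo-like kinase, which drives entry and later steps of mitosis, was at 2.94, 5.36, 4.03 and 5.84 CPM at WT time point 1. It was at 1.97, 1.35, 1.09 and 1.36 CPM at time point 4, with no overlap and a log2 range of 1.76 ± 0.35. Aurka, the kinase of spindle poles, went from a mean of 11.2 ± 3.00 CPM in WT mice of time point 1 to 5.31 ± 0.577 CPM in those of time point 4, and Tpx2, which activates it on the spindle, ranged 1.31 on the log2 scale. Plk1 peaked at 1.21, after Aurka at 6.88 and Tpx2 at 6.80. Of the 2199 exon bases of Plk1, 156 overlap an antisense gene. No source used here gives the strand setting of the counts, so how reads in those bases were counted is not known.

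The chromosomal passenger complex, which corrects attachments of chromosomes to the spindle, peaked early. Its 4 members Aurkb (the kinase), Incenp (the scaffold), Birc5 (survivin) and Cdca8 (borealin) were all called, with peaks from 6.32 to 6.54. Incenp was at 36.4, 42.6, 43.7 and 49.0 CPM at WT time point 1, at 22.1, 30.5, 22.9 and 21.8 CPM at time point 3 and at 43.8, 49.6, 43.1 and 44.7 CPM at time point 6. Time point 3 lay below both others in every library. Its log2 range was 0.91 ± 0.21. Aurkb ranged more, from a mean of 14.4 ± 2.17 CPM in WT mice of time point 6 to 5.73 ± 2.18 CPM in those of time point 3.

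Of the spindle checkpoint genes, which hold back anaphase until all chromosomes are attached, Bub1 and Bub1b passed in WT and Ttk did not. Bub1, a checkpoint kinase, had the earliest peak of all members called, at 6.20, and only just passed (log2 range 1.16 ± 0.39, edgeR adjusted p = 0.0493). It was at 11.1, 15.7, 14.4 and 14.6 CPM at WT time point 6 and at 4.78, 7.48, 4.46 and 4.52 CPM at time point 3, with no overlap. Bub1b (BubR1), the checkpoint protein that binds Cdc20, went from a mean of 34.7 ± 4.03 CPM in WT mice of time point 6 to 17.7 ± 3.90 CPM in those of time point 4. Ttk (Mps1), the kinase at the head of the checkpoint, ranged 0.36 ± 0.16 (adjusted p = 0.181).

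The group around the anaphase-promoting complex held both the largest and the smallest WT range of the 39. Cdc20 (ENSMUSG00000006398, chromosome 4, 118432901 to 118437352, minus strand), the activator of the complex, was at 10.3, 13.7, 11.0 and 13.7 CPM at WT time point 1. It was at 4.44, 3.88, 3.48 and 0.444 CPM at time point 5, where the lowest value is the library of low Krt14. No library of time points 3 to 6 reached the level of time point 1. Its log2 range was 1.98 ± 0.34, and its peak, at 1.48, was the latest of the 35. Ube2c, the ubiquitin-conjugating enzyme of the complex, ranged 1.92 ± 0.34 and peaked at 6.95, and Cdca3, an adaptor for destruction of Wee1, ranged 1.46. Pttg1, securin itself, lay between 21.6 and 37.7 CPM in all 24 WT libraries, with a log2 range of 0.26 ± 0.09 and a fitted peak at 4.84, and it did not pass (adjusted p = 0.0713). Of their exon bases, Cdc20 shares 53 with Elovl1 and Ube2c 592 with Tnnc2, both on the other strand.

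Among the 6 centromere and kinetochore genes 5 were called, all but Ndc80. Cenpa, the histone variant that marks centromeres, was at 26.7, 33.7, 26.9 and 39.7 CPM at WT time point 1 and at 13.7, 10.8, 12.2 and 9.52 CPM at time point 4, with no overlap (log2 range 1.57 ± 0.27). Cenpe, a kinetochore motor, and Cenpf, a large kinetochore protein, peaked late, at 1.24 and 1.17. The Ndc80 complex members Spc25 and Nuf2, which hold microtubules, peaked early, at 6.33 and 6.55. Spc25 went from a mean of 12.5 ± 1.48 CPM in WT mice of time point 6 to 4.87 ± 1.27 CPM in those of time point 3. Ndc80, of the same complex, had the lowest level per kilobase of all 39 (0.900 CPM per kb over all libraries) and a log2 range of 0.54 ± 0.33 (adjusted p = 0.364).

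All 7 kinesins and spindle microtubule proteins passed. Kif4, a chromosome-bound kinesin, had the smallest p of them. It was at 26.4, 29.1, 28.9 and 32.3 CPM at WT time point 1 and at 19.7, 15.8, 15.4 and 13.4 CPM at time point 4, which did not overlap (log2 range 0.91 ± 0.17). It was also 1 of the 3 members that were not the lowest of their group in the WT library of low Krt14, with 21.0 CPM against 20.5 to 24.5 CPM in the other 3 libraries. Kif2c, a kinesin that takes microtubules apart, ranged 1.82 ± 0.34, and Hmmr, a spindle protein, 1.81 ± 0.37. Kif11, the motor that separates spindle poles, peaked at 6.53, ahead of Kif2c at 1.18. All 5 genes of the midzone and of cytokinesis passed too. Kif20a, a motor of the midzone, went from a mean of 21.9 ± 4.56 CPM in WT mice of time point 1 to 8.68 ± 1.44 CPM in those of time point 4, and Prc1, which bundles midzone microtubules, from 67.0 ± 7.56 CPM to 41.0 ± 7.38 CPM between the same groups. Of the chromosome structure genes, Top2a, the topoisomerase that untangles sister chromatids, was at 191, 223, 184 and 209 CPM at WT time point 6 and at 75.9, 138, 82.6 and 73.2 CPM at time point 3, with no overlap. Mki67, the coat protein of mitotic chromosomes used as a marker of dividing cells, had a similar range (1.05 ± 0.39 against 1.07 ± 0.32 for Top2a) and did not pass (adjusted p = 0.0782). Kif20a shares 1271 exon bases with Cdc23, Prc1 911 with Rccd1 and Kif4 832 with Pdzd11, all on the other strand, and Kif4 has a named pseudogene, so these counts are uncertain too. So are those of Ccna2, Cdca8 and Nusap1, with 510, 232 and 172 shared bases, and Top2a shares 122 with a gene on its own strand. Per kilobase of exon, Mki67 and Top2a had the highest levels of the 39, at 18.3 and 15.9 CPM per kb.

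**Figure D2:**
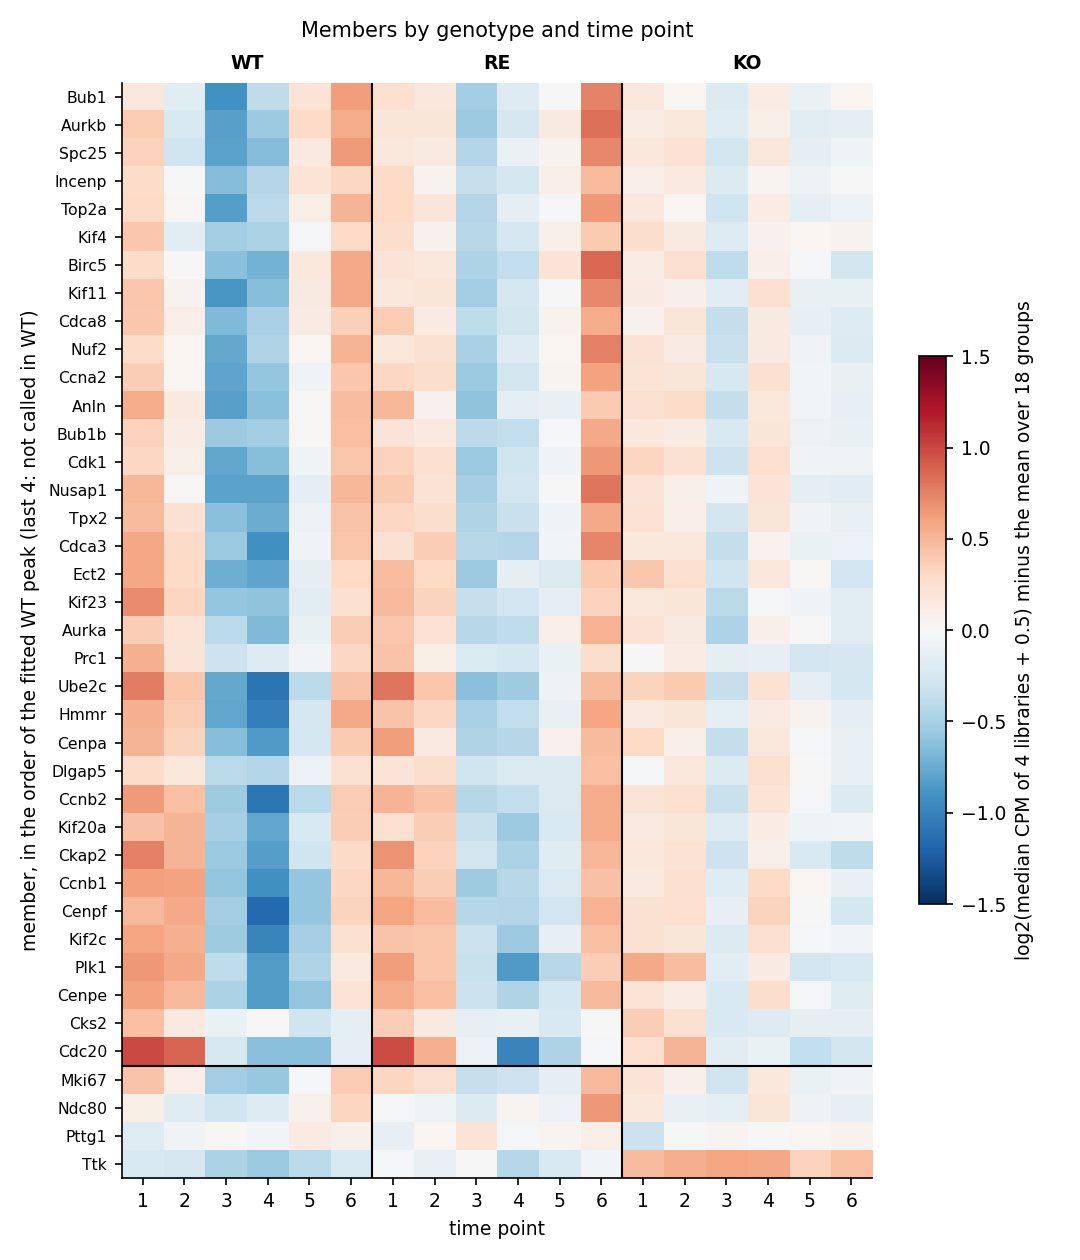
Each member (rows, in the order of the fitted WT peak, the last 4 not called in WT) by genotype and time point (columns); colour is log2 of the median CPM of 4 libraries plus 0.5, minus the mean over the 18 groups. WT time points 3 and 4 are low for most members, RE is low at time point 3 and KO groups differ less among themselves, and the median of Ttk is higher in each of the 6 KO groups than in WT.

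The WT peaks ran from passenger complex, checkpoint and other early genes to a late end, and both ends depended in part on the model. Over the members called, the mean peak was 6.44 for the passenger complex, 6.44 for the checkpoint, 6.85 for kinesins and spindle proteins, 6.86 for centromere and kinetochore, 6.88 for midzone and cytokinesis, 6.97 for the kinases, 6.98 for cyclins with Cdk1 and 1.08 for the group of the anaphase-promoting complex. Top2a, the chromosome structure gene that was called, peaked at 6.44. The earliest 3 members were Bub1 (6.20 ± 0.32, SE), Aurkb (6.32 ± 0.27) and Spc25 (6.33 ± 0.27). The latest 3 were Cenpe (1.24 ± 0.20), Cks2 (1.37 ± 0.28) and Cdc20 (1.48 ± 0.16). Neighbours in the order lay within their SE of each other, so only members far apart in it differ by more than the error of the fit. Without the 5 libraries in doubt the 3 earliest and the 3 latest were the same genes, between 6.02 and 1.40, and the mean moved to 6.65. With the term for the set Bub1 stayed first, at 6.39, followed by Kif4 and Aurkb, so Spc25 was no longer among the earliest 3. The latest 3 became Cenpe, Dlgap5 and Cenpf, the last at 1.43. Cdc20, at 1.28, and Cks2, at 6.68, were then no longer among them.

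**Figure D3:**
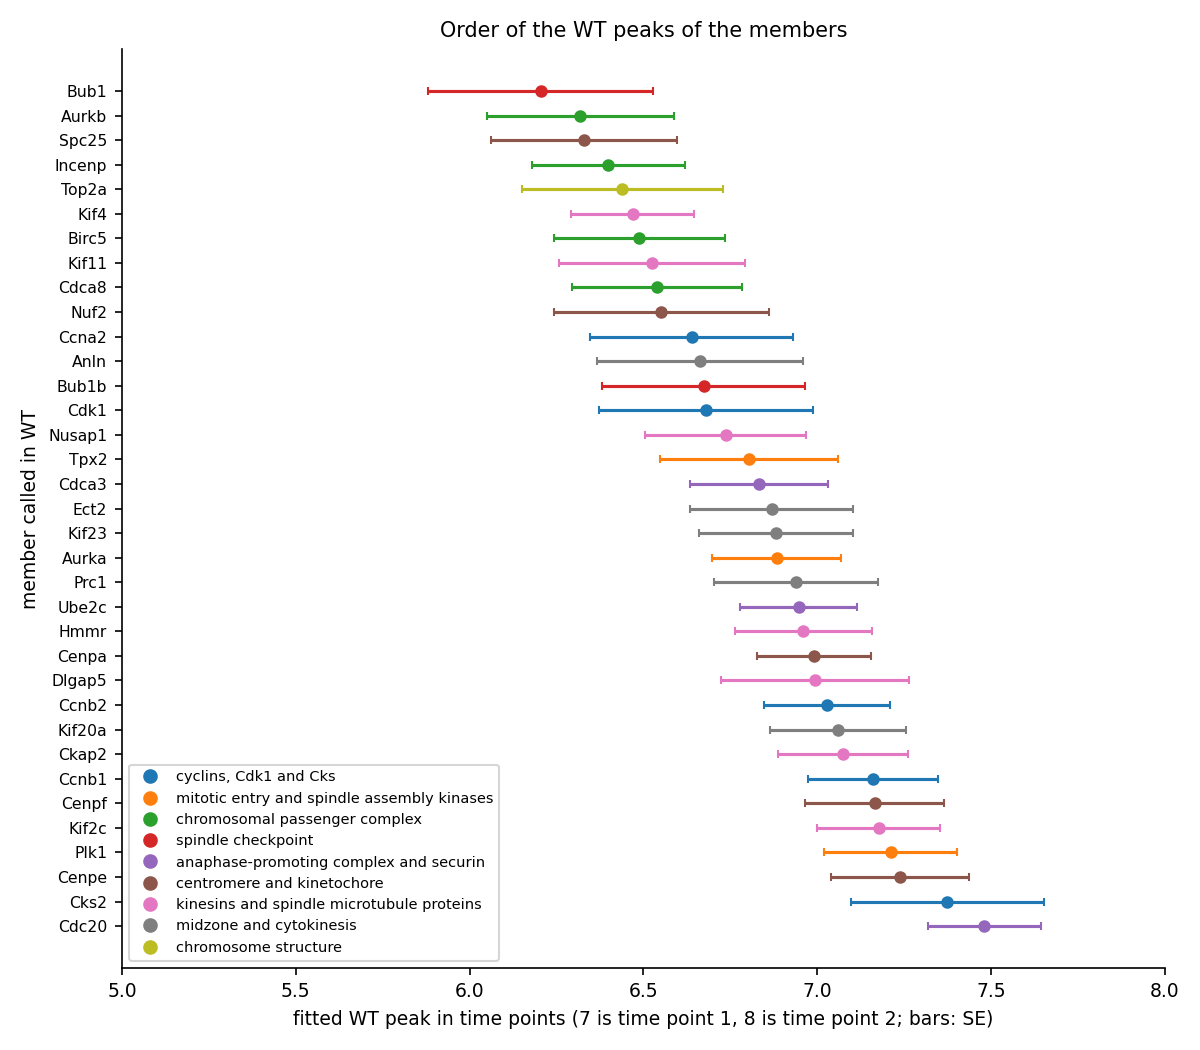
Fitted WT peak of the 35 members called (x axis, in time points, where 7 is time point 1; bars are the SE of the fit), in order and coloured by role. Passenger complex genes lie at 6.32 to 6.54 and Cdc20 is last at 1.48 on the scale of the text, drawn at 7.48.

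Genes of the same programme outside the list and of other cell cycle phases were read in the same fit. Of 40 other mitosis genes 22 were called in WT (33.3% of all genes were), with a mean peak at 6.75. Cdkn3, a phosphatase of Cdk1 and Cdk2, went from a mean of 2.80 ± 0.366 CPM in WT mice of time point 1 to 0.669 ± 0.0817 CPM in those of time point 4. Pimreg, Ccnf (cyclin F) and Nek2, a centrosome kinase, had the next smallest p. Of 32 S phase and replication genes 24 were called, with a mean peak at 4.10, when the G2 and mitosis genes were lowest. Prim1, the small subunit of primase, led them with a log2 range of 0.81 ± 0.12 and a peak at 4.22. Of 18 genes of G1 and cycle exit 11 were called, led by Ccnd2 (cyclin D2, peak at 3.22), Cdk6, Lin9 and Cdkn2c. In RE 5, 1 and 3 genes of the lists were called, where 12.7% of all genes were, a share that 5 of 40 does not exceed. In KO 0 of each were called by edgeR (7.26% of all genes), and the other tools were not read for these lists. In each list 2 genes had an unadjusted p under 0.05 in KO, as had 3240 of the 18515 genes tested.

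Markers of some other cells were called over the WT day too, where 33.3% of all genes were. Of the basal keratinocyte markers 0 of 7 were called by edgeR, with 1 at an unadjusted p under 0.05 (8166 of the 18515 genes tested had one). Group medians of their sum lay between 24498 and 27156 CPM in WT. The called share was 3 of 6 for suprabasal, 3 of 12 for hair matrix, 2 of 9 for outer sheath, 1 of 7 for T cell, 0 of 6 for fibroblast (0 at an unadjusted p under 0.05), 1 of 1 for endothelium and 3 of 4 for muscle markers, so that hair matrix, outer sheath, T cell, basal and fibroblast markers lay below the share of all genes. Langerhans cell and macrophage markers were called in 6 of 7 with a mean peak at 6.90, and their summed median was 703 CPM in time point 1 against 214 CPM in time point 4. Melanocyte markers were called in 6 of 7 (peak 1.12, with a summed median of 66.0 CPM in time point 1 against 27.4 CPM in time point 4) and sebaceous gland markers in 5 of 6 (peak 1.83). The fitted Langerhans cell and melanocyte peaks lay among those of the members, and the sebaceous peak after all 35 of them. At time point 6, where the members were also high, the summed medians were 296 CPM for Langerhans cell and 22.3 CPM for melanocyte markers. These 2 sums were thus high at time point 1 and not at time point 6. The part of such cells in the members' rhythm was not tested.

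In KO no member passed the test for a rhythm (0 of 39, where 7.26% of all genes passed). DESeq2 and limma-voom also called 0, and 2 members, Cks2 and Cdc20, had an unadjusted p under 0.05 (3240 of the 18515 genes tested did). The median fold range was 1.14, against 1.16 over all genes. With the term for the set it was 1.42, above the 1.24 of all genes, and it was 1.32 against 1.25 when the 5 were also left out. The members took between 0.0933% of reads, at time point 3, and 0.124%, at time point 2. Ccnb2 was at 13.5, 10.8, 16.4 and 11.4 CPM at KO time point 1 and at 13.8, 11.1, 14.2 and 9.48 CPM at time point 4, which overlapped widely. These KO time points lie in different sets, while WT time points 1 and 4 both lie in the first, so genotype and set cannot be told apart there. The largest ranges were those of Cdc20 (0.90 ± 0.34, adjusted p = 0.206) and Plk1 (0.80 ± 0.35, 0.348). Cdc20 was at 9.26, 9.22, 8.00 and 8.12 CPM at KO time point 2 and at 4.33, 6.32, 5.36 and 2.70 CPM at time point 6. These did not overlap and also lie in different sets. Cks2 ranged 0.62 ± 0.21 (0.133), close to its 0.72 ± 0.21 in WT. With the 5 libraries in doubt left out, Cdc20 and Cks2 were called in KO (8.07% of all genes were), and the same count, 2, was reached without the 2 libraries of low Krt14 (8.69%). Adding the term for the set gave 0 with all libraries (2.05%) and 0 without the 5 (5.06%).

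In RE the members again peaked around time point 6 to 1, with smaller fitted ranges than in WT (no member passed the test of that difference), and 10 of 39 passed (12.7% of all genes did). The 10 were Cdc20, Kif4, Plk1, Cenpa, Aurka, Ube2c, Prc1, Cks2, Ckap2 and Incenp, with a mean peak at 6.90. An unadjusted p under 0.05 was found for 26 of 39 members and for 5046 of the 18515 genes tested. The median fold range was 1.87, against 1.21 over all genes. Ccnb2 was at 21.9, 16.5, 15.7 and 9.11 CPM at RE time point 6 and at 14.5, 5.02, 4.78 and 10.7 CPM at time point 3. These overlapped, and it did not pass (log2 range 1.05 ± 0.34, adjusted p = 0.0727). Cdc20 was at 12.3, 13.1, 12.2 and 8.04 CPM at RE time point 1 and at 1.82, 6.14, 3.63 and 1.87 CPM at time point 4, with no overlap (1.78 ± 0.34, peak 1.44, adjusted p = 0.000288). For both genes the RE time points set side by side lie in different sets. Plk1 ranged 1.57 ± 0.35 (peak 1.10) and Cenpa 1.06 ± 0.27 (peak 6.77).

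The RE count moved with single libraries. It was 6 without RE time point 1 replicate 3, 23 without RE time point 4 replicate 2 and 20 without WT time point 5 replicate 4, a library of another genotype. For these 3 counts the share of all genes is not given. It was 34 without the 2 libraries of low Krt14 (14.4% of all genes) and 23 without the 5 libraries in doubt (13.0%), and 15 when the term for the set was added to that (4.43%). With the term for the set and all libraries it was 4 (2.07%), and among time points within the sets 0 (3.11%). The spread between RE mice of one time point was wide. At RE time point 4, Ccnb2 was at 6.24, 16.1, 10.2 and 4.13 CPM, and replicate 2 was the highest of its group in 38 of 39 members.

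**Figure D4:**
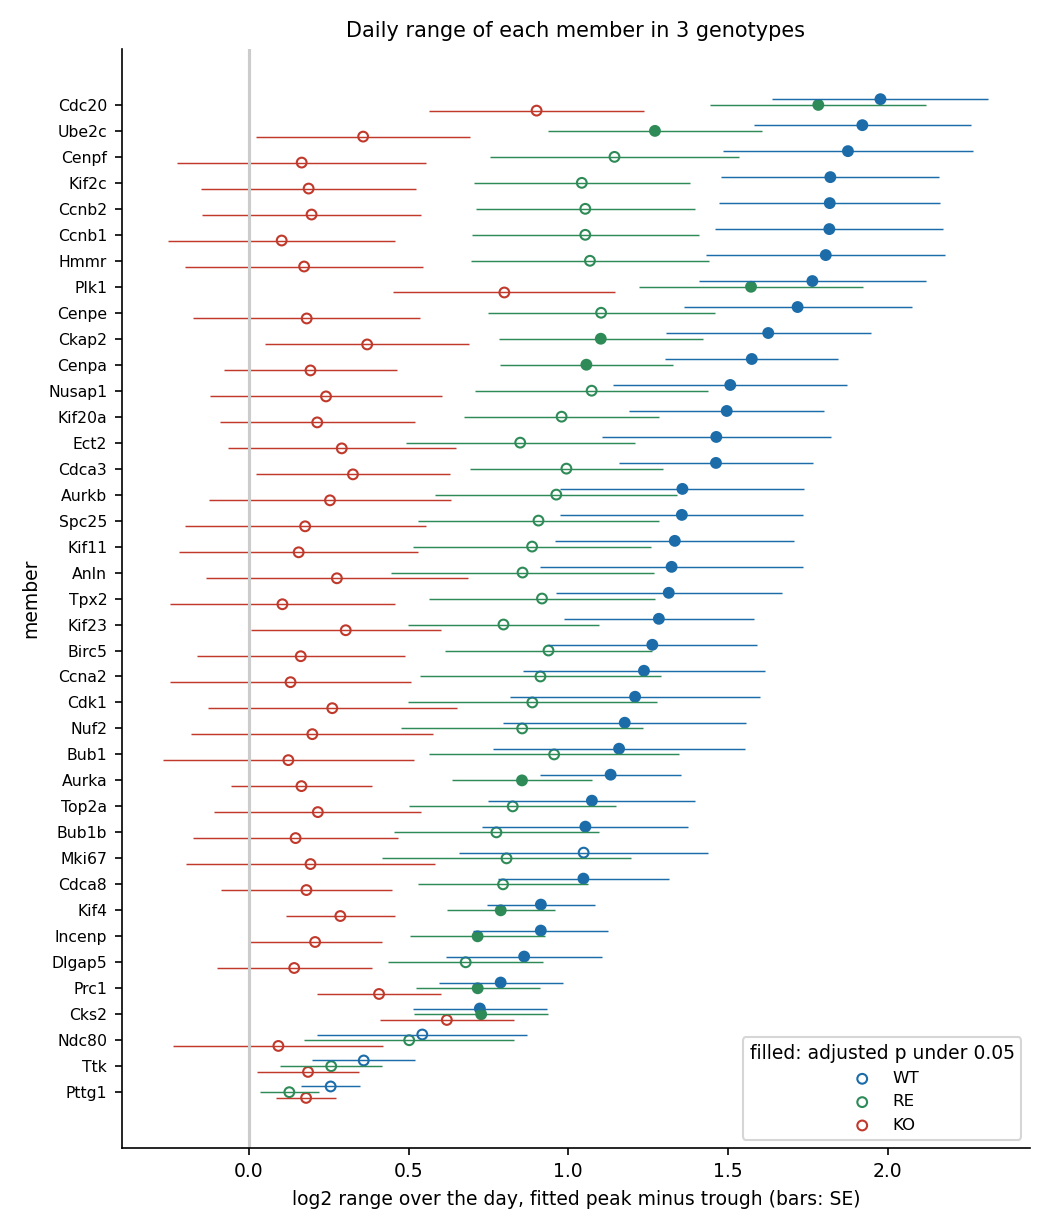
Fitted log2 range over the day (x axis, peak minus trough, bars are the SE of the fit) of each member in WT, RE and KO, with members in order of the WT range; filled points passed the test. For most members RE lies between WT and KO, while Cks2 has 0.72, 0.73 and 0.62 in WT, RE and KO, and Ttk and Pttg1 have small ranges in all 3.

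A test of the difference itself called no member in any pair of genotypes. Between KO and WT 0 of 39 passed in edgeR (1.17% of all genes did), limma-voom called 0 and DESeq2 called 1, Cenpa. An unadjusted p under 0.05 was found for 16 of 39 members and for 2371 of the 18515 genes tested. The smallest adjusted p was that of Cenpa (0.0878), whose difference curve ranged 1.41 on the log2 scale. Without the 5 libraries in doubt 25 of 39 passed (4.62% of all genes), among them Hmmr, Ccnb1, Cenpa, Nusap1 and Kif2c with the smallest p, while 10 did without the 2 libraries of low Krt14 (3.18%), 14 without the 5 and with the term for the set (5.14%), and 0 with that term and all libraries (1.19%). Leaving out RE time point 5 replicate 3 alone gave 3, for which the share of all genes is not given. Libraries in doubt were themselves extreme in the members. KO time point 3 replicate 1 was the lowest of its group in 37 of 39, and WT time point 3 replicate 2 the highest in 36. The 2 of low Krt14 were the lowest in 36. Counts without these libraries, here and above, are thus not independent of the members' levels. The members furthest from a difference in the fit without the 5 were Cks2 (adjusted p = 1.00) and Pttg1 (0.739). Between RE and WT 0 passed (0.0108% of all genes), and between RE and KO 0 passed (0% of all genes). Over the alternatives the share of all genes called lay between 0.00540% and 0.513% for RE against WT (0.118% without the 2 libraries of low Krt14) and between 0% and 0.00535% for RE against KO (0.00534% without those 2), and 0 members were called in each. In both of these comparisons, 0 members had an unadjusted p under 0.05, and DESeq2 and limma-voom also called 0. Of the 18515 genes tested, 1066 had such a p for RE against WT and 479 for RE against KO. The median range of the difference curve was 1.15 for KO against WT, 0.37 for RE against WT and 0.79 for RE against KO. A p that misses the threshold does not show that RE and WT were alike. The 3 comparisons share their libraries in pairs.

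In the level averaged over the day, Ttk was the 1 member that passed a test between genotypes. Between KO and WT 1 of 39 members passed (19.8% of all genes passed, 8.72% as higher in KO). The median difference of the 39 was 0.10 on the log2 scale, against -0.01 over all genes. Between RE and KO Ttk was again the only one (11.7% of all genes, 4.86% as lower and 6.79% as higher in RE), with a median of 0.03 over the members. Between RE and WT 0 passed (0.627% of all genes, 0.292% as higher in RE), also in DESeq2 and limma-voom, with a median of 0.14. There 1 member had an unadjusted p under 0.05, as had 2136 of the 18515 genes tested. The summed level of the members was 1088 ± 387 CPM in WT, 1127 ± 254 CPM in KO and 1161 ± 466 CPM in RE (SD, n = 24). Prc1, next by p between KO and WT, differed by -0.17 ± 0.10 (adjusted p = 0.225), and passed without the 2 libraries of low Krt14 (-0.22, 0.0190). Ube2c, next between RE and WT, differed by 0.24 ± 0.17 (0.631), and Pttg1, next between RE and KO, by 0.07 ± 0.05 (0.344), and neither passed.

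Ttk (ENSMUSG00000038379, chromosome 9, 83834689 to 83872389, plus strand) was the 1 member that passed for its mean level. It lay between 29.9 and 73.0 CPM in WT with a median of 39.4, between 39.1 and 92.6 CPM in KO with a median of 70.5, and between 30.8 and 91.9 CPM in RE with a median of 46.4 (24 libraries each). At time point 2, where all 3 genotypes are of the first set, it was at 40.6, 42.6, 34.7 and 42.5 CPM in WT, at 71.2, 79.2, 67.4 and 74.0 CPM in KO, and at 53.6, 51.5, 38.4 and 40.1 CPM in RE. KO lay above both other genotypes there with no overlap. The log2 change was 0.79 ± 0.08 between KO and WT (edgeR adjusted p = 5.79e-12) and -0.56 ± 0.08 between RE and KO (2.24e-07), and 0.23 ± 0.08 between RE and WT (0.183). The lowest KO value, 39.1 CPM, is that of KO time point 3 replicate 1, the library in doubt, and the highest WT and RE values, 73.0 and 91.9 CPM, are those of the 2 libraries of low Krt14, in which 36 other members were the lowest of their group. Without the 5 libraries in doubt the changes were 0.88, -0.64 and 0.24, and the last then passed (adjusted p = 0.00177, where 3.51% of all genes passed). That call was also made without the 2 libraries of low Krt14 (2.34%) and without the 5 with the term for the set (3.15%), and not with that term and all libraries (0.421%). The call between KO and WT held with that term (16.9% of all genes), and between RE and KO Prc1 joined Ttk when the 5 were left out and the term was added (18.7%). Over time points 1 to 3 alone KO exceeded WT by 0.81, and over time points 5 and 6 by 0.58 (adjusted p = 0.00617), while RE against KO was -0.56 and -0.35 (0.159). Suprabasal markers moved with Ttk: the group medians of their sum lay between 16876 and 18798 CPM in WT, between 23518 and 25614 CPM in KO and between 19371 and 23718 CPM in RE. Of these markers 4 of 6 were called as higher in KO than in WT, where 8.72% of all genes were. In the 2 libraries of low Krt14 both that sum and Ttk were the highest of their group. The part of suprabasal cells in the level of Ttk was not tested. The 4 protein-coding neighbours within 500 kb differed by between -0.10 (Sh3bgrl2) and 0.27 (Elovl4) between KO and WT.

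**Figure D5:**
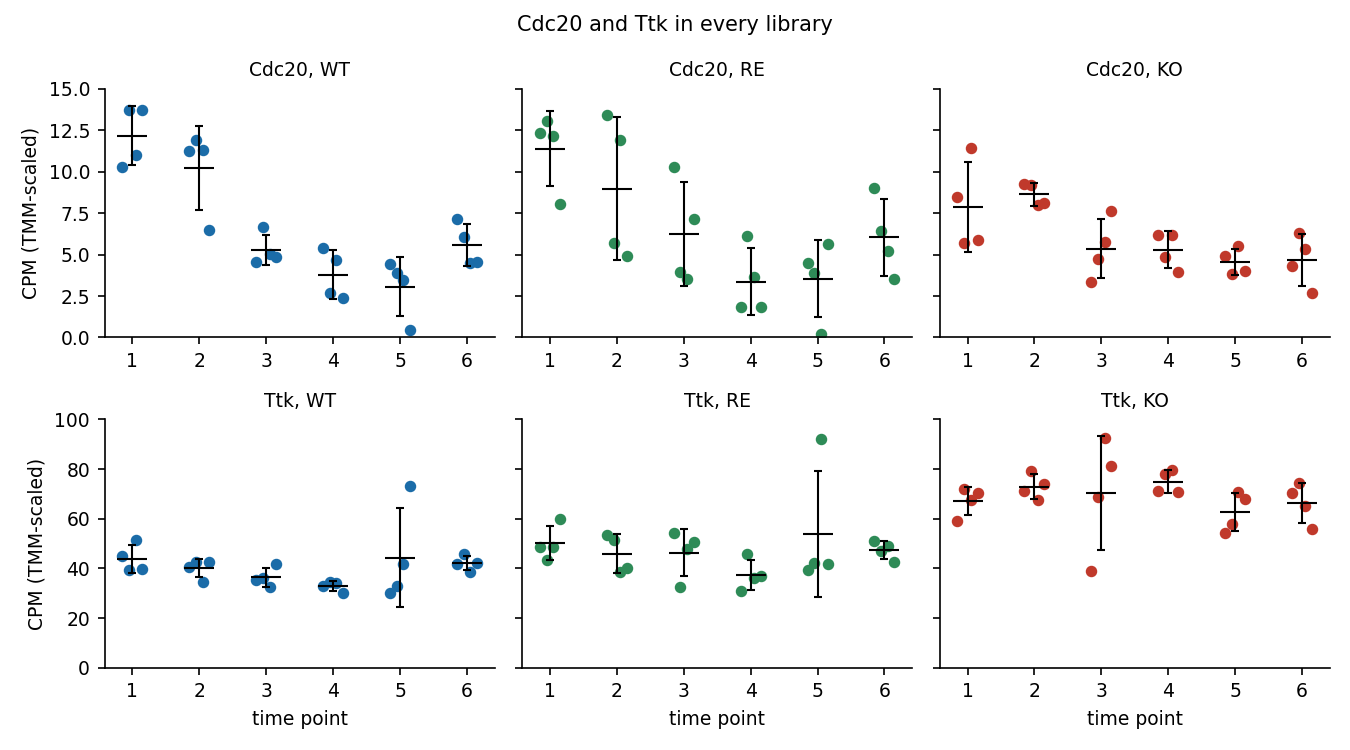
CPM of Cdc20 (top) and Ttk (bottom) in every library by time point (x axis) in WT, RE and KO; coloured points are libraries, bars are the mean and SD of 4. Cdc20 is high at time point 1 and low at time points 4 and 5 in WT and RE, and the mean of Ttk is highest in KO at each of the 6 time points, with libraries that overlap at time points 1, 3 and 5.

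Among the 40 other mitosis genes 2 changed in mean level between KO and WT, a smaller share than the 19.8% of all genes. Cdc25b, a phosphatase that activates Cdk1 at entry into mitosis, named here after its values were seen, had no rhythm call in any genotype. It was at 73.6 ± 8.14 CPM in WT, 27.6 ± 3.29 CPM in KO and 66.1 ± 1.84 CPM in RE at time point 2 (SD, n = 4), and its mean changed by -1.13 ± 0.10 between KO and WT (edgeR adjusted p = 5.85e-14) and by 1.07 ± 0.10 between RE and KO (6.88e-13). Its direction is thus the reverse of that of Ttk. Espl1, the protease separase, rose by 0.25 ± 0.08 (0.0170). Foxm1, which encodes a transcription factor of this programme, was called as rhythmic in WT (log2 range 1.23 ± 0.37, peak 6.39, adjusted p = 0.0236). Its mean was 30.8 ± 2.42 CPM in WT mice of time point 6 and 13.2 ± 4.52 CPM in those of time point 3 (SD, n = 4).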

How the data were processed

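Whole-number read counts per gene were deposited by the authors, one table per library, on Ensembl mouse identifiers; per the submitters' processing notes Trimmomatic, TopHat2 2.1.1 and HTSeq were used with builds mm10 and GRCm38. Summary lines of the counter (5 per library) were left out. Gene names, positions and exon lengths come from GENCODE M21 (GRCm38). edgeR 4.0.16 in R 4.3.3 fitted a quasi-likelihood model with TMM normalization to the 18515 genes kept by its filter on low counts, over all 72 libraries, with a mean, a cosine and a sine of the 6 time points for each genotype (9 coefficients). Rhythms, differences of rhythms and of means over the day were tested with F tests, with Benjamini-Hochberg adjustment over all genes tested and a threshold of 0.05. DESeq2 1.42.0 and limma-voom (limma 3.58.1) were alternatives. The log2 range is peak minus trough of the fitted curve, which cannot be negative, so noise alone gives a range above 0.

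The labels call the 4 libraries of a group replicates and describe 4 females per group, with nothing on cage, batch or extraction. No pair of libraries of a group differed by less than 13.8 times the sampling noise, so none was counted as a repeat. The members, the gene lists, the sets and the libraries in doubt were chosen with earlier results of these data known. Members named with their values are those with the smallest p of a role or comparison, and the 3 earliest and 3 latest peaks. Any member could be named beside these, and from the other cell cycle lists the 4 genes of smallest p, to which Cdc25b, Espl1 and Foxm1 were added after their values were seen.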

Additional observations from a re-analysis of the deposited data

Results flagged for a closer look

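In 19 of 396 groups of 4 libraries compared (21 named members and the median member level, in 18 groups), 1 library stood far from the other 3 by Dixon's test, which chance does in about 1 of 20 groups. The count is thus close to what chance gives, and members of one library are not independent. The 2 libraries of low Krt14 hold 7 of the 19. In WT time point 5 replicate 4 the median member level was at -2.97, with Incenp at 12.8 CPM, Bub1b at 2.49 CPM and Kif2c at 0.237 CPM. In RE time point 5 replicate 3 the median member level was at -3.01 and Aurka at 3.42 CPM, both low, while Ttk was high at 91.9 CPM.

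WT time point 3 replicate 2, which lay nearer to RE than to WT, was above the other 3 libraries of its group. Its median member level was at -0.0069, with Incenp at 30.5 CPM, Cenpa at 19.0 CPM, Kif4 at 19.4 CPM, Top2a at 138 CPM and Bub1 at 7.48 CPM. WT time point 2 replicate 4 was low in Cdc20 (6.47 CPM) and Plk1 (2.33 CPM). Cks2 was high in WT time point 1 replicate 2 (2.96 CPM), low in WT time point 4 replicate 1 (1.36 CPM) and low in RE time point 6 replicate 4 (1.20 CPM). Kif20a was high in KO time point 2 replicate 2 (20.1 CPM).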

How the results depend on the processing

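The WT count of 35 was 23 with time as 6 separate levels (42.9% of all genes), 20 from time points within the sets, 22 to 29 without one replicate number and 30 to 37 without one library. The KO count of 0 was 1 when only KO was fitted (Cdc20), and 2 without the 5 libraries in doubt or without the 2 of low Krt14. The RE count of 10 was 4 with 6 levels, 2 when only RE was fitted, 4 with the term for the set, 23 without the 5, 34 without the 2, 0 within the sets, 1 to 20 without one replicate number and 6 to 23 without one library. The KO against WT difference of rhythms, 0, was 1 in DESeq2, 3 with only those genotypes fitted, 25 without the 5, 14 with the term added to that, 10 without the 2, and 0 to 3 without one library. For the mean level, KO against WT went from 1 to 2 without the 2 libraries (Ttk and Prc1). RE against WT went from 0 to 1 (Ttk) without the 5, with or without the term, and without the 2, and was 0 to 1 without one library, the 1 being without WT time point 5 replicate 4. RE against KO went from 1 to 2 (Ttk and Prc1) with the term and without the 5, and to 0 over time points 5 and 6 only. No share of all genes is given for RE with 6 levels, for DESeq2, or for fits without one replicate number or library. None is given for fits of only some genotypes either, so these counts cannot be set against a background. Where only single genotypes were fitted, fewer libraries set the spread. Otherwise the cause of these changes was not tested.

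With the replicate number as a block 35 WT, 0 KO and 10 RE rhythms were called, and no other count of members changed. The labels do not say that the numbers pair mice. Deviations of same-numbered libraries correlated above 0.1 in 8 of 24 pairs of KO and WT, 9 of 24 of RE and KO and 16 of 24 of RE and WT. Of the values of single named members under the alternatives, 1140 kept their side of the threshold, 50 came to pass it and 85 no longer passed it, and none changed direction. Depth is low for some members: Cdc20, Plk1 and Ndc80 had as few as 6 reads in a library.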
